A study of Mus musculus with 6 samples.

Results

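The MAP kinase phosphatase and Sprouty feedback genes were taken as 10 genes by symbol: the dual-specificity phosphatases Dusp1, Dusp2, Dusp4, Dusp5, Dusp6 and Dusp10, the Sprouty genes Spry1 and Spry2, and the Sprouty-related genes Spred1 and Spred2. Each symbol matched 1 of the 57010 Ensembl identifiers in the count table, and all 10 passed the filter on low counts that left 16439 genes for testing. RNA sequencing had been done on mouse CD8 T cells from C57BL/6 animals aged 8 weeks, sorted as naive cells from spleen and lymph nodes and then kept for 24 hours with antibodies to CD3 and CD28. MondoAfl/fl mice, with the floxed allele but without Cre, gave 3 WT libraries. MondoAfl/flCD4cre mice, with the same allele and the transgene, gave 3 KO libraries. MondoA, encoded by Mlxip, is a glucose-responsive transcription factor that binds DNA with its partner MLX. CD4cre is switched on in developing thymocytes, so deletion precedes the split of CD4 and CD8 cells, and what Cre itself does cannot be told apart from the loss of MondoA. The labels do not say that each library came from its own animal, so every p-value measures the spread between these 6 libraries, part of which may be technical.

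MAP kinases relay the signal of the T cell receptor. Ras activates RAF, MEK and then ERK, while parallel cascades activate JNK and p38. Dual-specificity phosphatases remove phosphate from both the threonine and the tyrosine that switch a MAP kinase on. Many of them are themselves induced by MAP kinase signalling, which makes them feedback brakes. Sprouty and Spred proteins act higher up, between the receptor and RAF, and Spred proteins bring the Ras inactivator neurofibromin to the membrane. In T cells the abundance of these brakes is part of what sets how strongly and how long a stimulus is read.

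The libraries held from 26150420 to 34447230 counts. Levels are given as CPM, a gene's counts scaled to a fixed library total, after TMM correction of that total for composition. The labels were checked on the deleted gene and its targets. Mlxip lay between 121 and 142 CPM in WT and between 79.5 and 92.6 CPM in KO, with no overlap but a Benjamini-Hochberg adjusted p of 0.125 by edgeR's quasi-likelihood test and of 8.6e-05 by DESeq2. The MondoA targets Txnip and Arrdc4 were far lower in KO, at 214 to 232 CPM against 73.8 to 80.4 CPM for Txnip and at 29.0 to 36.9 CPM against 2.87 to 4.28 CPM for Arrdc4. All 10 CD8 T cell markers were present in every library, with summed levels of 2590 to 3090 CPM in WT and 3020 to 3370 CPM in KO. Summed B cell markers ranged from 257 to 400 CPM in WT and from 240 to 307 CPM in KO, and myeloid markers from 18.5 to 38.1 CPM and from 18.2 to 25.3 CPM. NK cell markers summed to between 76.9 and 90.4 CPM in WT and between 85.6 and 108 CPM in KO, mostly Eomes, with Ncr1 at 0 reads in WT 1, KO 1 and KO 3. S100a8 was at 0 in WT 2, and Lyz2, S100a8 and S100a9 were at 0 in KO 3. Klra4 was at 0 in KO 1 and KO 2, Klra8 in WT 3, KO 2 and KO 3, and Klrg1 in KO 1. Effector CD8 T cell markers summed to 496 to 611 CPM in WT and 440 to 477 CPM in KO without overlap. Most of that sum was Gzmb, with a log2 fold change of -0.04, which hides larger differences. The median log2 fold change of the 10 effector markers was -1.21, and -0.83 without WT 3. At an unadjusted p under 0.05 by edgeR's quasi-likelihood test 7 of them were lower and 0 higher. Over all 16439 genes tested the same counts were 948 and 830. On average 10 of 10 CD8 T cell markers were higher in KO. Lower were 6 of 6 CD4 T cell, 9 of 9 B cell, 6 of 7 tested myeloid, 4 of 5 tested NK cell and 8 of 10 effector markers. Of all 16439 genes tested 7758 were higher and 8681 lower. Among the CD4 T cell markers Il2ra, which activation also induces, was level, with a log2 fold change of -0.00097. The number of CD4 T cell markers lower was 5 of 6 with RLE scaling, with DESeq2, without the filter on low counts, and without WT 3 or KO 3. For B cells it was 7 of 9 without WT 3 and 8 of 9 without KO 3. Without KO 3 the median log2 fold change of B cell markers moved from -0.42 to -0.13. Myeloid and effector counts also shifted when 1 library was left out. The part of these markers in the results below was not tested. Xist was high and the Y-linked gene Ddx3y nearly absent in WT 3 and KO 2, and the reverse held in the other 4 libraries, so each group mixed 2 male libraries and 1 female library. The interferon-response gene Irf7 stood at 345 and 338 CPM in KO 1 and KO 2 but at 167 CPM in KO 3, inside the WT range of 162 to 180 CPM. These are bulk samples, in which fewer cells of a type and less RNA per cell cannot be told apart.

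Promoters of 9 of the 10 genes were found in RefSeq's table for GRCm38.p6, each running from 250 bases before the start of the gene to 50 bases after it. The gene not matched was Dusp4. The counts were made on GRCm39, so these windows describe the genes and not the mapping. The promoters of 5 genes are printed 5′ to 3′ on the gene's own strand, because Dusp1 and Dusp2 hold the E-box, the core of the element that MondoA binds with MLX, Dusp5 holds serum response elements, and Dusp10 and Spred1 serve as examples of the 3 genes whose KO libraries all lay above WT (Dusp10, Spry1 and Spred2) and of the 1 whose libraries all lay below (Spred1). Capitals mark motif matches.
Dusp1 promoter (chr17:26508423-26508722, minus strand): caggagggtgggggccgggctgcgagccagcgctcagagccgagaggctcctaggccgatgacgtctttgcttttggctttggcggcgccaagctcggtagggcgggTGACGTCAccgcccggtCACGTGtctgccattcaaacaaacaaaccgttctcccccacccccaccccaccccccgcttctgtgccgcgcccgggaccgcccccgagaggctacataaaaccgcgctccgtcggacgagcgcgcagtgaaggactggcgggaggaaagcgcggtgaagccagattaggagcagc
Dusp2 promoter (chr2:127335909-127336208, plus strand): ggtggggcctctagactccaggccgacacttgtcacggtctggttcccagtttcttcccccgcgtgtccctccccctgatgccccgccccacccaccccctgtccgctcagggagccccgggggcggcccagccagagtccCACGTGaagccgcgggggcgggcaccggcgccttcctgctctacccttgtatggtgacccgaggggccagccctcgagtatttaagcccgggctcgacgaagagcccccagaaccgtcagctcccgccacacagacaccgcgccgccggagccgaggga
Dusp5 promoter (chr19:53528895-53529194, plus strand): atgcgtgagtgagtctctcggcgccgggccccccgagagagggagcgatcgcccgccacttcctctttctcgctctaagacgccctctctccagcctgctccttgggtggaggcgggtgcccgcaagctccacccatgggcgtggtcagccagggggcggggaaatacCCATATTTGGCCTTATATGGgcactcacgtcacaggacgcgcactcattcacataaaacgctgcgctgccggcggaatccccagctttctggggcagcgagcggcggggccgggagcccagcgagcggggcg
Dusp10 promoter (chr1:184034131-184034430, plus strand): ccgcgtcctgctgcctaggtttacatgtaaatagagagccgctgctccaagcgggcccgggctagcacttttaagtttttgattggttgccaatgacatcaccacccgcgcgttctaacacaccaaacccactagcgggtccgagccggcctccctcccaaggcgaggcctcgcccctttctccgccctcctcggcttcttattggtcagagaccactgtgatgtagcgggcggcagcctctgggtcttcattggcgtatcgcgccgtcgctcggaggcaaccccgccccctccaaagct
Spred1 promoter (chr2:117120821-117121120, plus strand): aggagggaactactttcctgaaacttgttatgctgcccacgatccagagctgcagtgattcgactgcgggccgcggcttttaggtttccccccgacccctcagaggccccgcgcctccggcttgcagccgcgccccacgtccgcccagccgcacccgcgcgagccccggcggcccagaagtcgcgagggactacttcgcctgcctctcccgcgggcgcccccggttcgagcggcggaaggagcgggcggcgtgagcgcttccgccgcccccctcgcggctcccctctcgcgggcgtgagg

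The motifs were searched on both strands. The E-box CACGTG was found in 2 of the 9 promoters, Dusp1 (from 126 to 121 bases before the start) and Dusp2 (from 109 to 104 bases before it), and in 7.15% of the 32851 promoters in the table. The cyclic AMP response element TGACGTCA was found in Dusp1 alone of the 9, from 143 to 136 bases before the start, against 1.79% of all promoters. Dusp5 held 2 adjacent serum response elements, the site of serum response factor, between 82 and 63 bases before the start, and 1.63% of all promoters held at least 1. No match was found in the 9 windows for the AP-1 site (TGACTCA or TGAGTCA, in 5.20% of all promoters), the ETS site CCGGAAGT (3.89%) or the TATA box TATAAA (13.6%). The motifs do not overlap each other in these windows, and a match describes letters and not binding. The share of G and C in the 9 windows ran from 57.0% (Spred2) to 72.3% (Spred1), above the median of 52.7% over all promoters.

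Per kilobase of exon, the most abundant of these transcripts was Dusp2, the nuclear phosphatase also known as PAC-1 and first described in activated lymphocytes. Its level was 67.3 CPM per kilobase on average over the 6 libraries (55.2 to 72.7), above every library of any other member. Spred2, Dusp10, Dusp5 and Dusp1 followed at 22.4, 22.2, 21.1 and 19.0 CPM per kilobase, and the ranges of neighbours in this order overlapped. Spred1 (4.5 CPM per kilobase), Dusp4 (4.15) and Dusp6 (2.37) formed a lower tier, again with overlapping neighbours. Both Sprouty genes were close to the floor of detection, Spry2 at 0.342 and Spry1 at 0.200 CPM per kilobase. Lengths came from GENCODE M21. With the longest transcript in place of the union of exons Dusp1 moved from the fifth place to the second, at 27.1 CPM per kilobase, and the tiers kept their members.

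**Figure D1:**
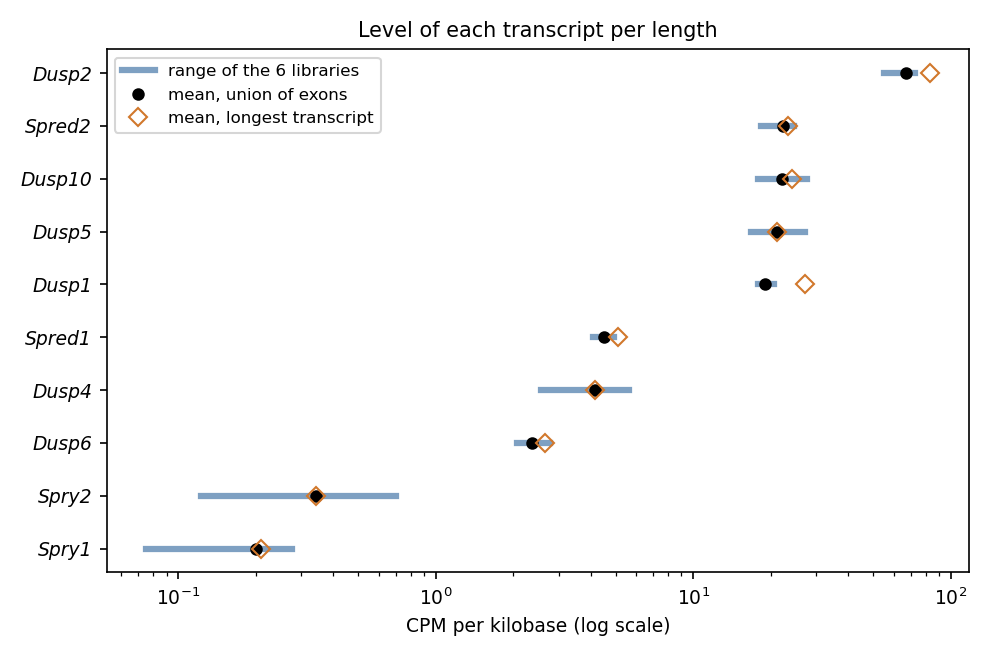
Level of each transcript in CPM per kilobase on a log axis. Black points are means of the 6 libraries over the union of exons, bars the range of the libraries, and open diamonds the mean over the longest transcript. Dusp2 stands alone at 67.3, a group of 4 lies near 20, and Spry1 and Spry2 lie below 1.

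Between KO and WT no member reached an adjusted p of 0.05 (quasi-likelihood test of edgeR, Benjamini-Hochberg over all 16439 genes), where 0.0122% of genes did (Txnip and Arrdc4). Without KO 3, 80 genes (0.472% of those then tested) and 0 members passed. At an unadjusted p under 0.05 there were 3 of the 10 members, Dusp10, Spred2 and Spred1, against 10.8% of all genes tested. The 3 KO libraries lay above the 3 WT libraries for 3 members, Dusp10, Spred2 and Spry1 (7.80% of all genes), and below them for 1, Spred1 (8.65%). Of the 10 members 4 were higher and 6 lower on average, beside 7758 and 8681 of all genes tested. Their median log2 fold change was -0.024, beside -0.016 over all genes tested. The members therefore did not share a direction.

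**Figure D2:**
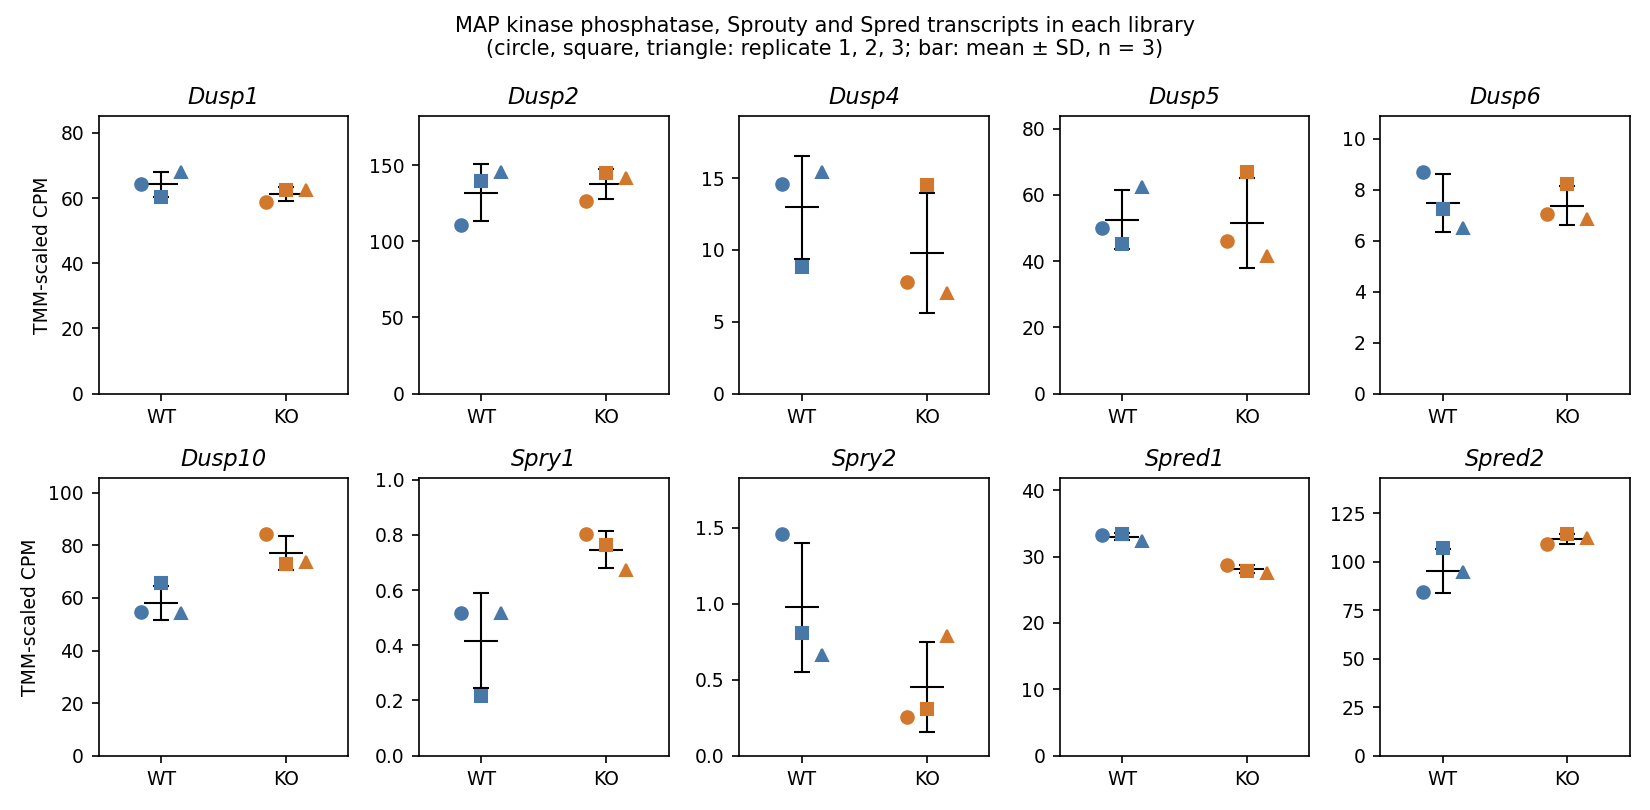
TMM-scaled CPM of each transcript in the 6 libraries, with circles, squares and triangles for replicates 1, 2 and 3 and bars for the mean and SD of 3 libraries. Dusp10, Spry1 and Spred2 lie higher in all KO libraries and Spred1 lower, while the other 6 overlap.

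Dusp10, also called MKP-5, is a phosphatase that prefers JNK and p38 to ERK. It had the smallest p of the family. Dusp10 (ENSMUSG00000039384) stood at 54.6, 65.7, 54.2 CPM in WT 1 to 3, against 84.4, 73.0, 73.6 CPM in KO 1 to 3. Every KO library was above every WT library, and the gap between the nearest 2, WT 2 and KO 2, was smaller than the range within either group. The group values were 58.2 ± 6.48 CPM in WT against 77.0 ± 6.42 CPM in KO (n = 3 each, SD). The log2 fold change was 0.40 (standard error 0.103), which is 1.32-fold with a 95% interval from 1.13 to 1.55 for this gene taken alone. The edgeR quasi-likelihood test gave a Benjamini-Hochberg adjusted p of 0.330, so the difference did not pass over all genes. DESeq2 gave an adjusted p of 0.0486, where 1.28% of genes passed, and edgeR without a filter on low counts gave 0.0112, where 1.76% passed. Over all 14 alternatives the adjusted p ran from 0.0112 to 0.847, the last without WT 1. Between male libraries the log2 ratio of KO to WT was 0.39 (2 against 2 libraries), and between the female libraries it was 0.43 (1 against 1). Without overlap between the groups both ratios had to be positive.

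The Spred genes, brakes on the step from Ras to RAF, lay on opposite sides of their WT levels. Spred2 stood at 84.4, 107 and 94.4 CPM in WT 1 to 3. In KO 1 to 3 Spred2 stood at 109, 114 and 112 CPM, a narrow band just above the highest WT library. Its means were 95.3 ± 11.4 CPM in WT against 112 ± 2.65 CPM in KO (n = 3 each, SD), and its log2 fold change was 0.23 (standard error 0.0943). Spred1, whose human counterpart is mutated in Legius syndrome, stood at 33.3, 33.4, 32.4 CPM in WT, against 28.8, 27.8, 27.6 CPM in KO. These were the tightest replicates of the family, with coefficients of variation of 1.71% in WT and 2.18% in KO, and the groups did not overlap. At the 878 to 1162 reads a library that Spred1 had, counting error alone is larger. Values as small as these, from 3 libraries each, therefore understate its true spread. Spred1 averaged 33.02 ± 0.565 CPM in WT against 28.1 ± 0.612 CPM in KO (n = 3 each, SD), a log2 fold change of -0.24 (standard error 0.0888). By the edgeR quasi-likelihood test the Benjamini-Hochberg adjusted p was 0.435 for Spred2 and 0.398 for Spred1, so neither passed. For each gene taken alone the 95% interval ran from 1.01-fold to 1.36-fold for Spred2 and from 0.741-fold to 0.974-fold for Spred1. That these intervals leave out 1-fold depended on the setting. By the test of each alternative, the unadjusted p was under 0.05 in 9 of 14 alternatives for Spred2 and in 8 of 14 for Spred1. Within male libraries (2 against 2) the log2 ratios were 0.21 for Spred2 and -0.24 for Spred1, and between the female libraries (1 against 1) 0.28 and -0.22. As the groups of both genes did not overlap, the signs within each sex were fixed beforehand. Whether the sexes differed was not tested.

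**Figure D3:**
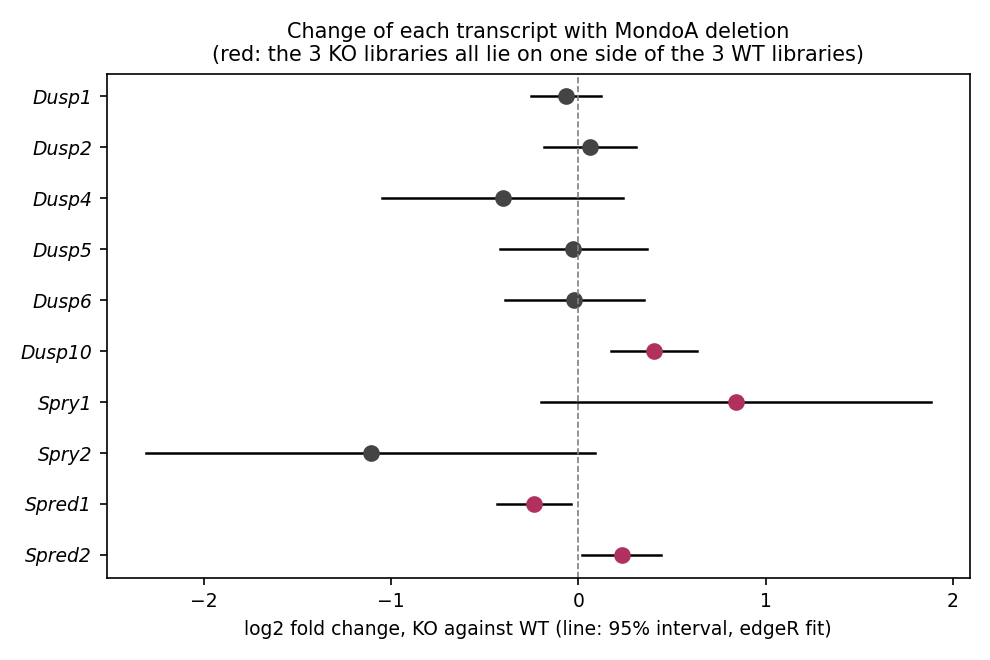
Fitted log2 fold change of each transcript, KO against WT, with its 95% interval for that gene alone. Red points mark the 4 genes whose KO libraries all lie on one side of the WT libraries. The intervals of Dusp10, Spred1 and Spred2 leave out 0, those of Spry1, Spry2 and Dusp4 are wide, and no adjusted p passed.

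The nuclear phosphatases Dusp1 and Dusp2 were nearly level between the groups. Dusp1, or MKP-1, inactivates p38, JNK and ERK. It stood at 64.4, 60.3, 68.1 CPM in WT 1 to 3, against 58.9, 62.4, 62.6 CPM in KO 1 to 3. The groups overlapped, with a log2 fold change of -0.068 and a 95% interval from 0.839-fold to 1.09-fold. Dusp2 stood at 111, 139.7, 146 CPM in WT, against 126, 145, 141 CPM in KO. Its spread came mostly from WT 1, the lowest of the 6, and its log2 fold change was 0.059 with an interval from 0.879-fold to 1.24-fold. By the edgeR quasi-likelihood test the Benjamini-Hochberg adjusted p was 0.788 for Dusp1 and 0.868 for Dusp2.

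Dusp4 and Dusp5 varied between libraries more than between genotypes. Dusp4, or MKP-2, is a nuclear phosphatase of ERK, JNK and p38, and Dusp5 is a nuclear phosphatase of ERK alone. Dusp4 stood at 14.6, 8.82, 15.5 CPM in WT 1 to 3, against 7.78, 14.6, 7.02 CPM in KO 1 to 3. The 2 higher WT libraries and KO 2 lay near 15 CPM, and the other 3 libraries between 7.02 and 8.82 CPM. The log2 fold change of Dusp4 was -0.40 (standard error 0.288) with a 95% interval from -1.05 to 0.24, and leaving out 1 library moved it between -0.81 (without KO 2) and -0.21 (without KO 3). Dusp5 stood at 50.1, 45.2, 62.4 CPM in WT, against 46.2, 67.0, 41.5 CPM in KO. The highest library of Dusp5 in each group was the female one, WT 3 and KO 2. Its means were 52.6 ± 8.82 CPM in WT against 51.6 ± 13.6 CPM in KO (n = 3 each, SD), with a log2 fold change of -0.027 and an interval from -0.42 to 0.37. By the edgeR quasi-likelihood test the Benjamini-Hochberg adjusted p was 0.621 for Dusp4 and 0.968 for Dusp5. Coefficients of variation within KO were 42.4% for Dusp4 and 26.4% for Dusp5, against 3.44% for Dusp1 and 7.13% for Dusp2.

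Other transcripts of the same libraries followed this order in part. Myc stood at 85.5, 89.3, 114.5 CPM in WT 1 to 3, against 75.4, 108, 63.6 CPM in KO 1 to 3, so that, as for Dusp5, WT 3 and KO 2 were the highest. Il2ra, the high-affinity IL2 receptor chain induced by activation, stood at 196, 179, 219 CPM in WT, against 220.2, 232, 141 CPM in KO. KO 3, the lowest library for Dusp4 and Dusp5, was also the lowest for Myc and Il2ra. Foxp3, which defines regulatory T cells, stood at 15.2, 6.31, 11.5 CPM in WT, against 4.63, 9.40, 5.65 CPM in KO. The 3 libraries with most Foxp3, WT 1, WT 3 and KO 2, were the 3 with most Dusp4. Over the 6 markers of CD4 T cells the summed level was 215 to 265 CPM in WT and 174 to 269 CPM in KO, most of it Il2ra, with Cd4 itself at 3.07 to 4.84 CPM in WT and 0.995 to 2.22 CPM in KO and no marker at 0. The part of Foxp3-expressing cells, of the sex of the mice or of the degree of activation in the levels of Dusp4 and Dusp5 was not tested. With a term for sex, added after the data were seen, the log2 fold changes were -0.47 for Dusp4 and -0.046 for Dusp5. Between male libraries (2 against 2) the log2 ratio of KO to WT was -0.66 for Dusp4 and -0.12 for Dusp5, and between the female libraries (1 against 1) it was -0.086 and 0.10. Whether the sexes differed was not tested.

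**Figure D4:**
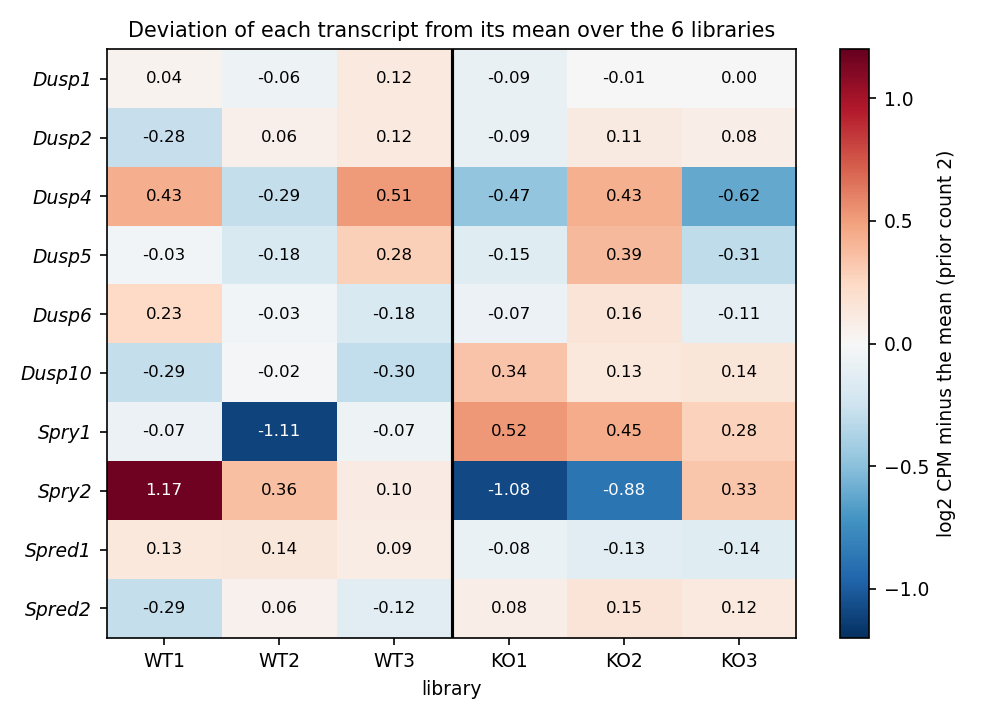
Deviation of each transcript from its own mean over the 6 libraries, in log2 CPM with a prior count of 2, with red for higher and blue for lower. Dusp4 and Dusp5 are both high in WT 3 and KO 2 and low in WT 2, KO 1 and KO 3, while Dusp10, Spry1 and Spred1 divide at the line between the genotypes.

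Dusp6, or MKP-3, is the cytoplasmic phosphatase of ERK and in many cell types follows ERK activity closely. It was scarce in these cells, at 8.70, 7.24, 6.49 CPM in WT 1 to 3, against 7.04, 8.24, 6.85 CPM in KO 1 to 3. The groups overlapped fully. Means were 7.48 ± 1.13 CPM and 7.38 ± 0.755 CPM (SD, n = 3 each), and the log2 fold change of -0.022 had an interval from 0.761-fold to 1.28-fold (adjusted p = 0.974 by edgeR's quasi-likelihood test). The log2 ratio of KO to WT for Dusp6 was -0.20 between male libraries (2 against 2) and 0.35 between the female libraries (1 against 1), a difference that was not tested.

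The Sprouty genes rested on few reads. Spry1 had 18, 7 and 14 reads in WT 1 to 3 and 25, 25 and 23 reads in KO 1 to 3, which is 0.515, 0.217 and 0.516 CPM against 0.804, 0.763 and 0.673 CPM. The KO libraries were higher without overlap, and WT 2 was the lowest. WT 2 was also under the level that the filter on low counts asks for, which is 0.303 CPM before the TMM correction. The log2 fold change of Spry1 was 0.84 (standard error 0.467) with a 95% interval from -0.20 to 1.88, and without WT 2 it was 0.54. Spry2 had 51, 26 and 18 reads in WT against 8, 10 and 27 in KO, so KO 3 lay above WT 3 and the groups overlapped. Before that correction 1 KO library of Spry2, KO 3, passed the filter's level. Its log2 fold change was -1.11 (standard error 0.539) with an interval from -2.31 to 0.088, and leaving out 1 library moved it between -1.79 (without KO 3) and -0.70 (without WT 1). The 95% intervals ran from 0.872-fold to 3.68-fold for Spry1 and from 0.202-fold to 1.06-fold for Spry2. Adjusted p was 0.534 and 0.484 by edgeR's quasi-likelihood test, so neither difference passed. Coefficients of variation were 41.4% in WT and 8.99% in KO for Spry1, and 43.4% and 65.4% for Spry2. At this depth 3 reads are worth 0.0871 to 0.115 CPM. The parts of depth and of spread between libraries were not tested.

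The other genes of the pathway were described from lists chosen by function, but with earlier results of these data known. Shares over all genes are therefore given beside them as description only. None of their genes passed by the edgeR quasi-likelihood test over all genes. Of the 16 other dual-specificity phosphatases 14 were tested (not Dusp15 and Dusp26). On average 4 of them were higher and 10 lower in KO, beside 7758 and 8681 of all 16439 genes tested. Their median log2 fold change was -0.19. It was 0.016 over the 6 genes averaging 5 CPM or more, and -0.25 over all 14 when libraries were scaled by their totals alone. Dusp7, a cytoplasmic phosphatase of ERK like Dusp6, averaged 26.01 ± 2.60 CPM in WT against 32.6 ± 4.36 CPM in KO (n = 3 each, SD) with a log2 fold change of 0.33. Dusp14 averaged 1.81 ± 0.830 and 0.859 ± 0.257 CPM with a log2 fold change of -1.06, on 18 to 74 reads a library. It was the only gene of the list whose groups did not overlap. Over all genes tested KO lay all above WT for 7.80% and all below for 8.65%. Styx, a pseudophosphatase without catalytic activity, had a log2 fold change of -0.30 and Dusp28 one of 0.44. Of the other Sprouty and Spred genes, Spry4 was near the floor at 0.236 CPM in WT and 0.581 CPM in KO (log2 fold change 1.29), and Spred3 was at 4.10 and 3.09 CPM (log2 fold change -0.40).

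Of the 26 genes that lead from Ras to ERK, 14 were higher and 12 lower, a split that turned to 12 and 14 when libraries were scaled by their totals alone. Their median log2 fold change was 0.015. Rasgrp1, the exchange factor that loads Ras in T cells, stood at 134, 135, 123 CPM in WT 1 to 3, against 155, 152, 151 CPM in KO 1 to 3. The KO libraries of Rasgrp1 were all higher, with a log2 fold change of 0.23. In the list as a whole they lay all above WT for 4 genes and all below for 2, Nras and Braf. The shares over all genes tested were 7.80% and 8.65%. Its relatives differed in direction, Rasgrp3 with -0.87 and the scarce Rasgrp4 with 1.28. Ksr1, a scaffold of RAF, MEK and ERK, had a log2 fold change of 0.44 with KO libraries from 44.0 to 72.3 CPM, the lowest inside the WT range. The Benjamini-Hochberg adjusted p of these 4 genes ran from 0.373 to 0.384 by edgeR's quasi-likelihood test.

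The cascades that Dusp10 acts on gave 15 genes higher and 7 lower among 22 tested p38 and JNK genes (not Mapk10 and Mapk13). Of all 16439 genes tested 7758 were higher and 8681 lower. The median log2 fold change of the list was 0.061. When libraries were scaled by their totals alone its split was 11 and 11. Map3k5, the stress-responsive kinase ASK1, stood at 38.5, 43.1, 43.8 CPM in WT 1 to 3, against 53.9, 59.6, 53.5 CPM in KO 1 to 3. These values did not overlap, and the log2 fold change of 0.41 (standard error 0.0931) was close to that of Dusp10. The adjusted p of Map3k5 was 0.330 by edgeR's quasi-likelihood test and 0.0198 by DESeq2. Mapk14, which encodes p38 alpha, averaged 110.2 ± 8.45 CPM in WT against 131 ± 11.9 CPM in KO, and Mapk8, which encodes JNK1, 33.1 ± 2.26 and 38.4 ± 0.981 CPM (SD, n = 3 each). Both had all KO libraries above WT, as had 4 genes of the list in all, and none had them below (7.80% and 8.65% of all genes tested). Map3k3, the remaining gene of the 4 with the smallest p, had a log2 fold change of 0.11.

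Transcripts known to be induced by ERK gave 9 higher and 11 lower among 20, with a median log2 fold change of -0.043 that was -0.11 when libraries were scaled by their totals alone. Egr1, an immediate early gene of ERK signalling, stood at 23.0, 27.1, 29.2 CPM in WT 1 to 3, against 31.7, 49.6, 29.7 CPM in KO 1 to 3. KO 2 stood above the other 5 libraries, and its log2 fold change was 0.49. Ier2 averaged 62.6 ± 3.92 CPM in WT against 74.3 ± 4.45 CPM in KO (n = 3 each, SD), also without overlap. Phlda1 had a log2 fold change of 0.59 and the ERK substrate Elk1 one of -0.31, both with overlapping groups.

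Among 20 other brakes on Ras and T cell receptor signalling 12 were higher and 8 lower in KO, with a median log2 fold change of 0.10 that was 0.037 when libraries were scaled by their totals alone. All 3 KO libraries lay above WT for 6 of them and below for none, beside 7.80% and 8.65% of all genes tested. Nf1, which encodes neurofibromin, the partner of the Spred proteins, stood at 48.7, 46.2, 47.3 CPM in WT 1 to 3, against 62.9, 62.7, 56.0 CPM in KO 1 to 3. Its log2 fold change was 0.35 (standard error 0.0864), and its adjusted p was 0.330 by edgeR's quasi-likelihood test and 0.0427 by DESeq2. Nf1 and Spred2 were thus higher and Spred1 lower in every KO library. Dok2, an adaptor that recruits RasGAP, Dgkz, which removes the diacylglycerol that activates RasGRP proteins, and Spata2, an adaptor of the deubiquitinase CYLD, had log2 fold changes of 0.25, 0.18 and 0.24 and adjusted p from 0.390 to 0.457 by edgeR's quasi-likelihood test. Rasa3, a Ras inactivator named after its values were seen, lay in the other direction with a log2 fold change of -0.27, overlapping groups and an adjusted p of 0.457 by the same edgeR test.

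**Figure D5:**
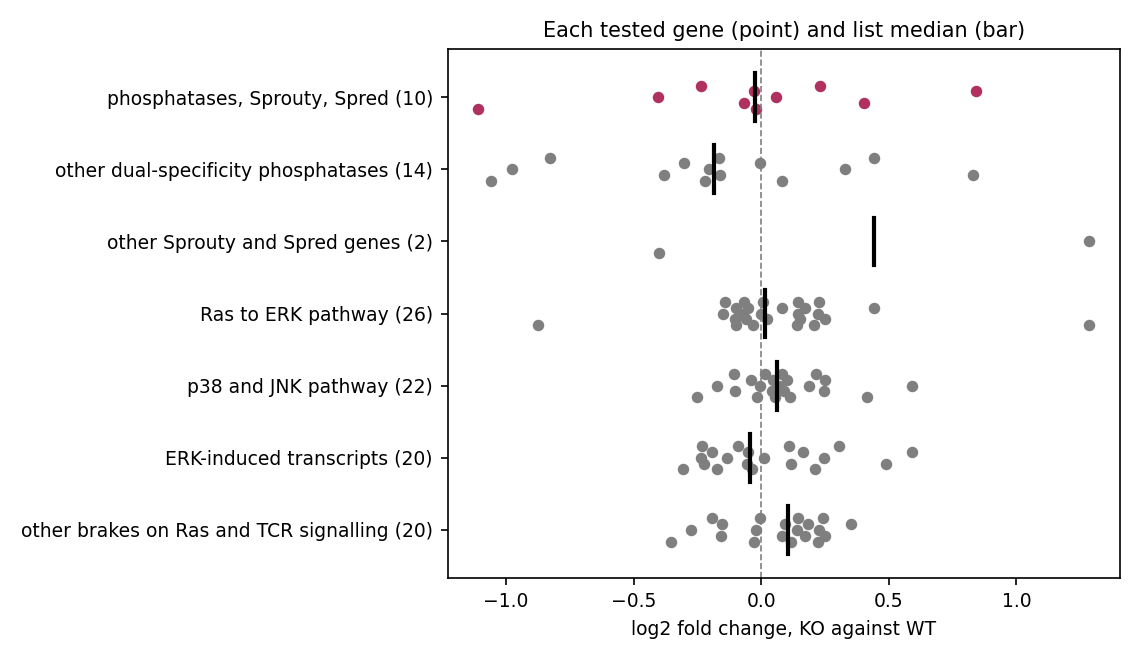
Fitted log2 fold change, KO against WT, of each tested gene in the members and in 6 lists of the pathway, with a vertical bar for the median of each list. Red points are the 10 phosphatase, Sprouty and Spred genes and grey points the genes of the other lists. Medians lie between -0.19 and 0.10 except for the list of 2 other Sprouty and Spred genes.

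Across the 6 libraries the members followed few common patterns. As a description over 6 libraries that share their genotype groups, Pearson's r of log2 CPM was highest for Dusp4 with Dusp5 (0.86, and 0.93 after group means were removed) and for Dusp10 with Spred2 (0.84, but 0.57 after removal). It was lowest for Dusp1 with Dusp10, at -0.82. For each member the nearest transcripts were then sought among 9135 genes averaging 5 CPM or more, leaving out the members, genes without a symbol, predicted models, pseudogenes and antigen receptor segments. The pattern of Dusp10 was most like those of Bclaf1 (r = 0.998) and Ciapin1 (0.996), and that of Spred2 most like Ythdc1 (0.998) and Timp2 (0.993). Spred1 lay nearest to Cep162 (0.997) and to the MondoA target Txnip (0.990), both lower in every KO library, as Spred1 was. A shared split by genotype raises r whatever the size of the change. The log2 fold change was -0.24 for Spred1, -0.28 for Cep162 and -1.53 for Txnip. Dusp4 was nearest to Map4k1 (0.992), Dusp5 to Ildr1 (0.989), Dusp1 to Tmc4 (0.999), Dusp2 to Foxo4 (0.977) and Dusp6 to Pip4p2 (0.991). For the scarce Spry1 and Spry2 the nearest were Vps16 (0.993) and Nedd1 (0.998). With only 6 points such values describe likeness in these libraries only.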

How the data were processed

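Bulk RNA sequencing counts of 6 libraries were analysed, 3 WT and 3 KO, grouped by the titles given in the labels. The deposited values are raw read counts per Ensembl gene. The submitters' processing notes name HISAT2, Subread, featureCounts and the GRCm39 build, and the strand setting is not given in the sources used here, so reads of a gene and of an antisense neighbour may be mixed. Symbols were matched to 52029 of 57010 identifiers through GENCODE M21.

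Counts were filtered with filterByExpr (minimum count 10, minimum total 15), scaled by TMM and fitted with edgeR 4.0.16 (quasi-likelihood test, R 4.3.3), KO against WT, with Benjamini-Hochberg adjustment over 16439 genes and a threshold of 0.05. The tests were checked on simulated counts. Intervals are 95% for 1 gene and cover the spread between libraries. With 3 libraries against 3 an exact permutation test cannot go below 0.1, so none is given. A floor of 3 counts corresponds to at most 0.115 CPM, and floors cover counting error only. Alternatives were other scalings, other filters, DESeq2 1.42.0, limma-voom (limma 3.58.1), a replicate block, each library left out, and, chosen after seeing the data, a term for sex. No 2 libraries of a group agreed within counting noise, so none was treated as a repeat deposit of another. This does not show that they came from separate animals.

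The members and lists were chosen with earlier results of these data known. Named genes are all members, the label checks, up to 4 genes of smallest p in each pathway list, the leading markers and the nearest 1 or 2 genes of each member. Il2ra, Myc, Foxp3, Irf7, Xist and Ddx3y were added after their values were seen. Identity between the encoded proteins was not analysed here. The promoter sequences are RefSeq's, on GRCm38.p6.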

Additional observations from a re-analysis of the deposited data

How the results depend on the processing

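The number of genes passing was 2 with TMM, RLE or total scaling, over genes averaging 5 CPM or more and with limma-voom, but 511 without a filter on low counts (245 higher, 266 lower), 153 with DESeq2 (87 higher, 66 lower) and 6 with a term for sex chosen after seeing the data. Leaving out 1 library gave 2 to 80 genes (0.0117% to 0.472% of those tested), with 0 members in every case. The 80 came without KO 3 (65 higher, 15 lower). Of the members 1 passed without the filter, where 1.76% of genes did, and 1 with DESeq2, where 1.28% did, Dusp10 both times. The cause of these differences was not tested. The log2 fold change of Dusp2 turned to -0.0069 with total scaling, and leaving out 1 library moved it between -0.049 and 0.13. The same ranges were -0.26 to 0.11 for Dusp5 and -0.11 to 0.11 for Dusp6, and the signs of these 3 members are not fixed. Dusp1, Dusp4, Dusp10, Spry1, Spry2, Spred1 and Spred2 kept their sign under every alternative that gave them a value. Spry1, Spry2 and the other Sprouty and Spred genes gave none over genes averaging 5 CPM or more.

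The replicate numbers were shared between groups. The deviations of same-numbered libraries from their group means correlated at 0.018, -0.41 and -0.11, so the numbers were not treated as pairs. Other patterns can dominate such values, as with 0.54 between the female libraries WT 3 and KO 2. They therefore cannot decide whether the numbers mark pairs. With the replicate number as a block 2 genes and 0 members passed, and Dusp10 had a log2 fold change of 0.41 with an adjusted p of 0.446 by edgeR. Spry1 and Spry2 rest on 7 to 51 reads a library, and the part of depth in their results was not tested.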
